A study of Homo sapiens with 6 samples.

Results

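The replication-dependent histone genes were examined in KHM-5M, an established human cell line from an anaplastic thyroid cancer. A gene was counted as a member when its symbol in the deposited table began with HIST1H, HIST2H, HIST3H or HIST4H, and 66 of 17687 listed genes did so. GENCODE 29 annotates 71 protein-coding genes with such symbols, of which 5 were not in the table. The members comprised 5 genes for the linker histone H1 and 16, 17, 14 and 14 genes for the core histones H2A, H2B, H3 and H4. By symbol, 51 members belonged to the large cluster on chromosome 6 (HIST1) and 12 to the cluster on chromosome 1 (HIST2). Another 2 belonged to the smaller group on the same chromosome (HIST3), and 1 lay on chromosome 12 (HIST4H4). HIST2H3PS2, counted under HIST2, lay apart from the other HIST2 genes, at chr1:143905556-143905966.

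The study asked how sodium selenite (SS), a selenium salt, affects thyroid cancer cells, and whether the antioxidant N-acetylcysteine (NAC) alters that response. Cells grown in RPMI-1640 with fetal bovine serum received phosphate-buffered saline (control), SS, or SS together with NAC (SS+NAC), with 2 replicates in each of 3 groups. The labels give no dose unit and no time between treatment and harvest. RNA was captured on oligo(dT) beads and sequenced. The libraries held 17645545 and 22016655 counts in control, 23493415 and 23810056 in SS, and 23682740 and 22617180 in SS+NAC.

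Replication-dependent histone genes supply the proteins that package newly made DNA, and their transcription peaks in S phase. Their messengers are the known exception among animal mRNAs: most end in a conserved stem-loop that is bound by SLBP, and carry no poly(A) tail. Several of these genes can also yield spliced or extended transcripts with a poly(A) tail, which have been described in differentiating or arrested cells. A library made from polyadenylated RNA may therefore sample mainly the tailed share of the family, and a change in it may come from the amount or from the end of the transcript, which these data cannot tell apart.

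The identity of the line was checked against marker genes. Of the thyroid markers, PAX8 was abundant, with a mean of 123 TPM (the table's length-scaled share of transcripts) over the 6 libraries, while TG, SLC5A5, NKX2-1 and FOXE1 had mean levels of 0.262, 0.583, 0.128 and 0.945 TPM, and TSHR was not listed. Of the epithelial markers, KRT8, KRT18, EPCAM and CDH1 had mean levels of 1190, 924, 4.92 and 0.21 TPM. The mesenchymal markers VIM, FN1 and CDH2 had mean levels of 6160, 1170 and 45.3 TPM. COL1A1, often taken as a fibroblast gene, had a mean of 217 TPM, whereas COL1A2, PECAM1 and PTPRC stood at 0.025, 0.265 and 0.615 TPM.

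Detection of the family was low. At least 1 count was found for 66 of 66 members in some library, but only 14 members (21.2%) had at least 10 counts in every library, against 73.5% of all listed genes. An average of at least 100 counts was reached by 3 members (4.55%), against 61.3% of all genes. The mean level was at least 1 TPM for 42 members (63.6%, against 68.8% of all genes) and at least 10 TPM for 6 members (9.09%, against 46.1%). The members together held 0.00757% and 0.00778% of all counts in control, 0.012% and 0.013% in SS, and 0.00847% and 0.00824% in SS+NAC.

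More members were detected in the SS libraries. At least 10 counts were present for 15 and 20 members in the control libraries, for 44 and 41 in the SS libraries and for 26 and 23 in the SS+NAC libraries. Detection at matched depth was not tested. The summed level of the family was 74.2 and 77.5 CPM in control (counts scaled to library size with TMM), 123 and 141 CPM in SS, and 83.1 and 77.4 CPM in SS+NAC. Both SS libraries thus lay above the other 4. The mean of SS was 1.74 times that of control by CPM and 1.5 times by TPM, and the mean of SS+NAC was 1.06 and 1.02 times that of control. With 2 libraries a group an exact two-sided permutation test cannot give a p under 0.333, so no p is given for these sums. In bulk RNA, fewer cells that express a gene and less RNA per cell cannot be told apart.

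**Figure D1:**
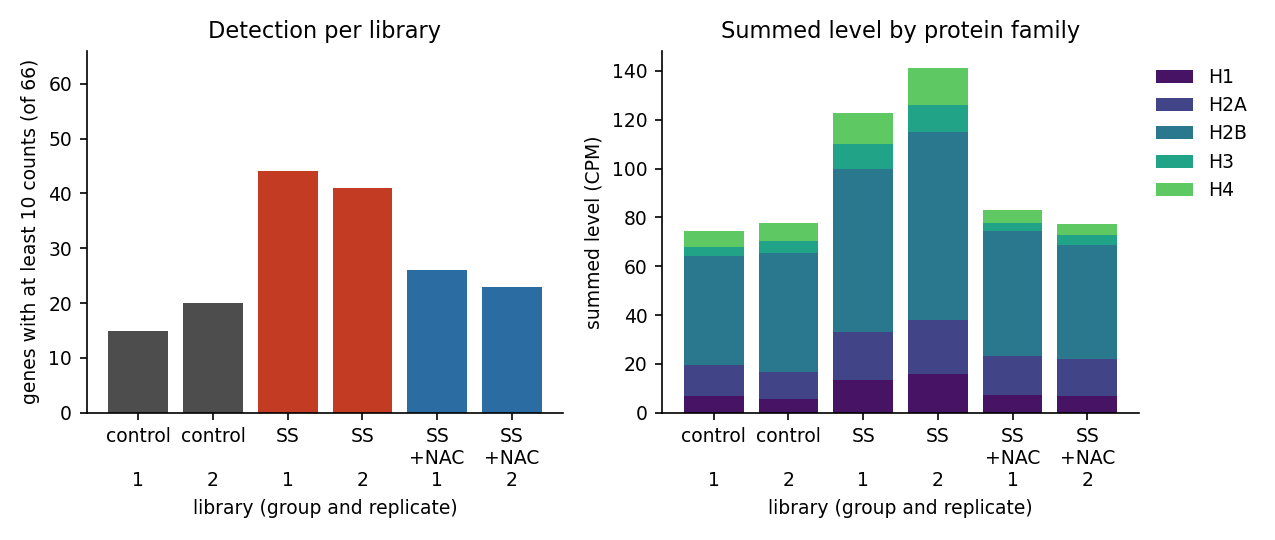
Detection and summed level of the histone genes in each library. Left, number of the 66 genes with at least 10 counts in control (grey), SS (red) and SS+NAC (blue); right, level summed over the genes of each protein family, in CPM. The SS libraries held 44 and 41 such genes and the control libraries 15 and 20.

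The most abundant member was HIST1H2BK, which encodes an H2B protein and is known for a polyadenylated form. It made up 30.3% of the family's mean TPM, with 80.3 and 83.4 TPM in control, 98.1 and 101 in SS, and 75.8 and 70.9 in SS+NAC. HIST1H1C (linker H1.2), HIST1H4C, HIST1H2AC, HIST1H2BH and HIST1H2BD followed, with mean levels of 20.1, 17.6, 13.1, 11.7 and 10.6 TPM. The levels of the other members ran down to 0.065 TPM. The 7 genes listed as known for polyadenylated forms (HIST1H1C, HIST1H2AC, HIST1H2BD, HIST1H2BJ, HIST1H2BK, HIST1H4H and HIST2H2BE) held 51.1 and 52.5 CPM of the family's summed level in control, and the other 59 members held 23.1 and 24.9 CPM. In SS the sums were 72.5 and 82.7 CPM for the 7 genes and 50.3 and 58.5 CPM for the others. Their means were 1.5 and 2.26 times those of control by CPM, and 1.23 and 1.84 times by TPM.

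The stem-loop that ends a histone messenger was looked for in the reference transcripts, as a stem of 6 base pairs around a loop of 4 bases. It was annotated for 30 of 66 members, and 0.0565% of all 83129 protein-coding transcripts in GENCODE 29 held one. Of the 36 members without it, 32 had only a coding sequence annotated, so that its absence there describes the annotation and not the gene. The examples given are mostly from members that recur in the comparisons, and were chosen after the values were seen. They are read in the sense of the transcript, with the stem and loop in capitals and the flanking bases in lower case.
HIST1H3G: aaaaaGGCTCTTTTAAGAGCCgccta
HIST2H2BE: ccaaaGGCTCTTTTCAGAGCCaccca
HIST2H2AA3: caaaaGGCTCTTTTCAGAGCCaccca
HIST1H2BD: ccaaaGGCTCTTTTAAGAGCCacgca
HIST1H4B: ccaatGGCCCTTTTCAGGGCCgccca
HIST1H4E: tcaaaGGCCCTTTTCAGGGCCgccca
The annotated transcript of HIST2H2BE ran on for 1729 bases after the stem-loop, that of HIST1H3G for 1518 and that of HIST1H4E for 1022, each with a poly(A) signal near its end. The transcript of HIST2H2AA3 ended 35 bases after it, also with a poly(A) signal. That of HIST1H4B ended 86 bases after it, without such a signal near its end. The deposited counts do not all rest on these transcript models: the table's effective length was 439 bases for HIST1H3G and 348 for HIST1H4E, shorter than these extensions, and 2230 for HIST2H2BE. Levels are therefore not given by the annotated end of the transcript.

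Histone promoters share short elements, which were searched on both strands in the 300 bases from 250 before to 50 after the start, as given by RefSeq (GRCh38.p14) for 61 of 66 members. TATAAA was present in 65.6% of member promoters and in 11.5% of all 35116 promoters. CCAAT was present in 85.2%, against 34.6%, and was found in each H1, H2A, H2B and H3 promoter but in only 25% of the H4 promoters. The octamer ATTTGCAT, known as a binding sequence of POU2F1 and related factors in H2B promoters, was present in 76.5% of H2B and 66.7% of H2A promoters, against 1.77% of all. AAACACA, known as the H1 box, was present in 5 of 5 H1 promoters and 5.64% of all promoters. A match is a description of letters and not of a bound site. The promoters of 3 linker histone genes, HIST1H3G and HIST2H2BE are given because these genes carry the comparisons, with these elements, or their reverse complements, in capitals. HIST1H1B is at chr6:27867539-27867838 on the minus strand, HIST1H1D at chr6:26234938-26235237 on the minus strand, HIST1H1E at chr6:26156079-26156378 on the plus strand, HIST1H3G at chr6:26271364-26271663 on the minus strand and HIST2H2BE at chr1:149886633-149886932 on the minus strand, each read in the sense of its gene.
HIST1H1B: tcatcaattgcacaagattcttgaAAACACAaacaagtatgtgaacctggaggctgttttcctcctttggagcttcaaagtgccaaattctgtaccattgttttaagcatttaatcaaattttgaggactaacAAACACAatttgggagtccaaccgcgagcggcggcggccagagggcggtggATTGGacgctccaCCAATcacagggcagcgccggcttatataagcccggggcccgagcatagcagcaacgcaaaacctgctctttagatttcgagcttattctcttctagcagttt
HIST1H1D: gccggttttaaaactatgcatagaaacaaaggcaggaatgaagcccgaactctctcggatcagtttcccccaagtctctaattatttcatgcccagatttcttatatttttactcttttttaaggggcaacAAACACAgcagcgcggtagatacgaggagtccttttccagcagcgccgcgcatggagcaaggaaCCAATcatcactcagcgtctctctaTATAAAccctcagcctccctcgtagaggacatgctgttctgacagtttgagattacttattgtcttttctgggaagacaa
HIST1H1E: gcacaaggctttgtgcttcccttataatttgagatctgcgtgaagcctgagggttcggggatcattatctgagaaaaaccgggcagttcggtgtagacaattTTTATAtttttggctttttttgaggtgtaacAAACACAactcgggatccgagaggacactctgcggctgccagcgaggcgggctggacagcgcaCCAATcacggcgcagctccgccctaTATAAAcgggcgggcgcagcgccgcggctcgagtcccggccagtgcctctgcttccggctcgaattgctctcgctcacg
HIST1H3G: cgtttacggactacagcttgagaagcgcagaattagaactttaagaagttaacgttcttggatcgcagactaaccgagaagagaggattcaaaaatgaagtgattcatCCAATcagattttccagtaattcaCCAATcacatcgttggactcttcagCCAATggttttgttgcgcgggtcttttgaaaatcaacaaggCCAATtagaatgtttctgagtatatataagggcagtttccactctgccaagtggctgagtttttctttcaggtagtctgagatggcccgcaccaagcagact
HIST2H2BE: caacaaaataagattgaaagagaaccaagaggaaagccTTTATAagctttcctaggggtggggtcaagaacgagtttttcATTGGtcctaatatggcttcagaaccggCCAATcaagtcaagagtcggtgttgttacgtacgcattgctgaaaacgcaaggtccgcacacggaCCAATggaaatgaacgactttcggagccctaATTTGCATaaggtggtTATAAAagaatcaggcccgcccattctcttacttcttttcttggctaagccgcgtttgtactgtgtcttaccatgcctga
The promoter of HIST1H1B held AAACACA 2 times and CCAAT 2 times, and those of HIST1H1D and HIST1H1E held each of these 1 time. The promoter of HIST1H3G held CCAAT 4 times and none of the other elements.

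The test covered the members that had enough counts. The filter on low counts passed 36 of 66 members, of which 15 passed in every group, 12 only through the SS libraries, 6 through the SS and SS+NAC libraries, and 3 in other ways. Those that passed only through SS had to be higher there to be tested, so counts among tested members do not describe the family. The other 30 members had few counts, which summed to 55 and 77.7 in control, 201 and 189 in SS, and 82.3 and 63.5 in SS+NAC. Fold changes, standard errors (SE) and p values are from the edgeR quasi-likelihood test over all 14005 genes that passed, with Benjamini-Hochberg adjustment, and a gene was called at an adjusted p of at most 0.05. Intervals given for ratios of counts are 95% exact intervals, and they and the lower bounds cover counting error only.

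Histone transcripts are short, and SS libraries differed from the others by transcript length. Across the 14005 tested genes the Spearman correlation of the log2 fold change with effective length was -0.68 for SS against control, -0.038 for SS+NAC against control and -0.64 for SS against SS+NAC. This is a description across genes, which are not independent replicates. The effective length of the members had a median of 439 bases and ran from 324 to 2629 bases. Each comparison was therefore also fitted with a length offset, a smooth correction of each library by effective length, and both results are given side by side. Which of them is nearer to the RNA content of the cells was not tested.

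SS against control asks what the selenium salt did to the family. The linker genes HIST1H1B, HIST1H1D and HIST1H1E, the H2A gene HIST1H2AH and the H3 gene HIST1H3G had few counts outside SS and were many times higher in both SS libraries, while the linker gene HIST1H1C was 1.81 times as high as in control and the abundant H2B gene HIST1H2BK was 1.47 times as high as in control. Of the 36 tested members, 24 rose and 0 fell by the edgeR test, against 18.6% of all tested genes higher and 21.4% lower. At an unadjusted p under 0.05 the counts were 25 and 0, and the share of all genes at that limit is not given. The median log2 fold change was 1.06 for the tested members and 0 for all tested genes. Among tested genes with an effective length of at most 1000 bases, however, 614 of 824 (74.5%) were also higher, and of the 34 tested members in that range 23 were, so that the number of calls was not above that of other short genes. In that range the median log2 fold change was 1.18 for the tested members and 0.52 for all genes, but 12 of the tested members passed the filter only by being higher in SS. For the 14 members with at least 10 counts in every library the median was 0.66, near that of short genes. With the length offset 6 members were higher, HIST1H1B, HIST1H1D, HIST1H1E, HIST1H2AH, HIST1H3D and HIST1H3G, against 4.19% of all tested genes and 1.09% of the short ones, and 0 fell, against 5.03% and 2.06%. Of these 6, 5 passed the filter only through the SS libraries and HIST1H3D passed in every group, and other genes that passed only through SS were not counted, so whether 6 is more than other genes gave was not tested. The DESeq2 Wald test called 5 members higher and 0 lower, against 2110 higher and 2501 lower of all 17644 genes in that test. Without control replicate 1 the count called without the offset was 12, and without SS replicate 2 it was 12. In fits that leave out a library, the lone library of a group is assumed to vary like the others.

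The whole family was also counted without a test. In 50 of 66 members each SS library was higher than each control library (CPM), and in 0 each was lower, against 31.9% above and 31.4% below among all listed genes. Among listed genes with an effective length of at most 1000 bases the share above was 60.5%, and among the members in that range it was 76.6%.

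**Figure D2:**
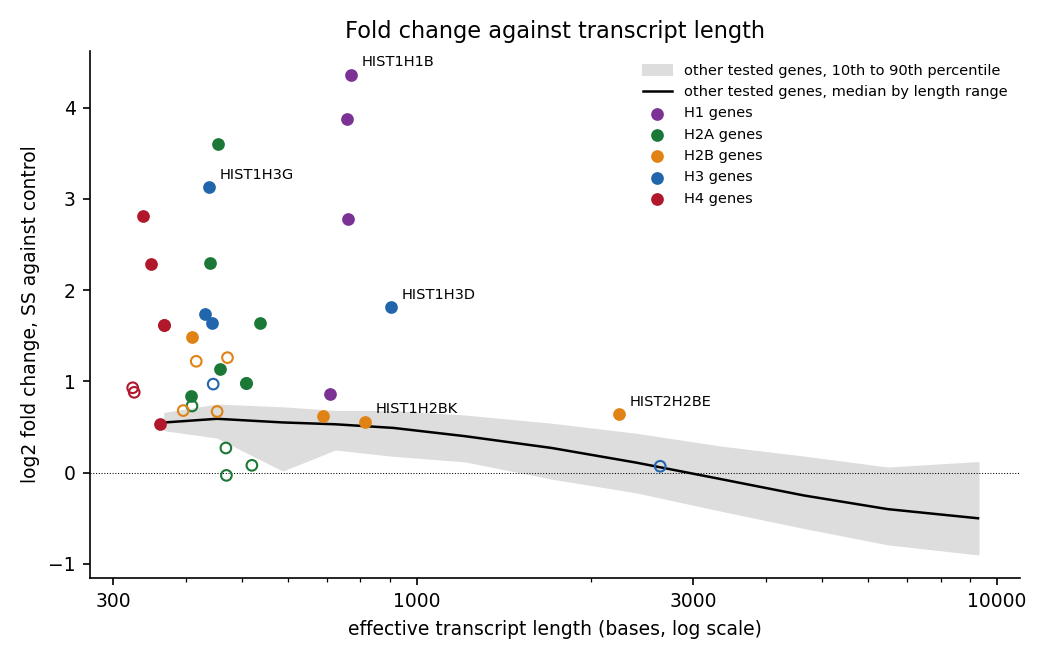
Log2 fold change of SS against control by effective transcript length in bases (log scale). Points are the 36 tested histone genes, coloured by family, filled where called without the length offset and open where not; the line and grey band are the median and the 10th to 90th percentile of the other tested genes in ranges of length. HIST1H1B, at 4.36, lies far above the band, and HIST1H2BK, at 0.56, lies inside it.

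The H1 genes encode linker histones, which bind DNA where it enters and leaves the nucleosome. HIST1H1B (gene ID 3009, linker H1.5) had 1 and 1 counts in control, 25 and 26 in SS, and 0 and 3 in SS+NAC. HIST1H1D (gene ID 3007, linker H1.3) had 2 and 1 counts in control, 23 and 30 in SS, and 3 and 1 in SS+NAC. HIST1H1E (gene ID 3008, linker H1.4) had 3 and 7 counts in control, 40 and 38 in SS, and 3 and 5 in SS+NAC. In these 3 genes the SS libraries were far above the other 4, which overlapped one another. The ratio of summed counts for SS against control, corrected for library size, was 22.8 (interval 6 to 193) for HIST1H1B and 15.8 (interval 5.12 to 79) for HIST1H1D. These 3 genes passed the filter only through the SS libraries, so they had to be higher there to be tested. The log2 fold changes were 4.36 ± 0.71 (SE, adjusted p = 0.00109), 3.88 ± 0.6 (adjusted p = 0.000817) and 2.78 ± 0.41 (adjusted p = 0.000661) in that order. With the length offset they were 3.89, 3.4 and 2.29. Over the alternative settings that gave an adjusted p, other than Bonferroni, it ran from 3.55e-05 to 0.0154, from 6.75e-05 to 0.0125 and from 6.24e-05 to 0.0147. Under Bonferroni adjustment, which the study's methods name, 0 members were called higher for SS against control. The H1 box is not particular to these 3 genes, since the promoters of HIST1H1C and HIST1H1A held it too.

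HIST1H1C, the most abundant linker gene here, changed less. It had 118 and 116 counts in control, 219 and 257 in SS, and 166 and 159 in SS+NAC, which are 5.9 ± 0.928, 10.6 ± 1.55 and 6.74 ± 0.191 CPM (SD, n = 2). The SS libraries were above all others, and the log2 fold change against control was 0.86 ± 0.16 (adjusted p = 0.00202). With the length offset it was 0.35 and not called. The remaining linker gene, HIST1H1A, had 6 and 2 counts in SS and 1 and 1 in control, was not tested, and is named after its values were seen.

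Among the H2A genes, 7 of 11 tested were called higher, and 1 with the length offset, where the shares of short genes called higher were 74.5% and 1.09%. The 7 include 2 copies with identical counts, and HIST1H2AH and HIST1H2AI, which passed the filter only through SS. The call with the offset was HIST1H2AH (gene ID 85235), with 2 and 2 counts in control, 30 and 27.2 in SS and 3.88 and 2.14 in SS+NAC. Both SS libraries stood far above the other 4. The ratio of summed counts for SS against control was 12.8 (interval 4.71 to 48.4). The log2 fold change was 3.6 ± 0.5 (adjusted p = 0.000544) and with the length offset 3.01, and over the alternatives other than Bonferroni the adjusted p ran from 4.99e-05 to 0.0111. The abundant HIST1H2AC gave no call, with 3.89 and 3.16 CPM in control, 3.34 and 4.07 CPM in SS and a log2 difference of 0.08 ± 0.19 (adjusted p = 0.776), which was -0.49 with the length offset (adjusted p = 0.139).

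Of the H2B genes, 4 of 8 tested were called higher, against the same 74.5% of short genes, and 0 by edgeR with the length offset, where 1 had an unadjusted p under 0.05. The DESeq2 Wald test called 2. HIST1H2BK had 33 and 34.9 CPM in control, 46.7 and 53.4 CPM in SS, and 31.2 and 27.1 CPM in SS+NAC. The SS libraries were the highest, by a margin near the median of 0.49 for other genes of 800 to 1000 bases. The log2 fold change was 0.56 ± 0.1 (adjusted p = 0.00149) and 0.08 with the length offset. HIST1H2BD, another gene known for a polyadenylated form, was at 3.14 and 3.83 CPM in control and 5.23 and 5.51 CPM in SS. It rose by 0.62 ± 0.2 on the log2 scale (adjusted p = 0.0332). That call was lost without control replicate 1, SS replicate 1 or SS replicate 2, with adjusted p = 0.191, 0.0766 and 0.135, and with the length offset, where the difference was 0.11.

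H3 genes gave 4 calls among 6 tested, and 2 with the length offset, against 74.5% and 1.09% of short genes. Of the 4, HIST1H3B, HIST1H3C and HIST1H3G passed the filter only through SS. HIST1H3G (gene ID 8355) had 3 and 6 counts in control, 48 and 42 in SS, and 8 and 2 in SS+NAC. HIST1H3D (gene ID 8351) had 7.76 and 12 counts in control, 37 and 41.6 in SS, and 14 and 17.6 in SS+NAC. The SS libraries were above the others in both genes, and in HIST1H3D both SS+NAC libraries also lay slightly above control. The log2 fold changes were 3.13 ± 0.47 (adjusted p = 0.000715) for HIST1H3G and 1.81 ± 0.34 (adjusted p = 0.00214) for HIST1H3D, and with the length offset 2.54 and 1.36. Over the alternatives other than Bonferroni the adjusted p ran from 1.68e-05 to 0.013 and from 0.000622 to 0.0505, so that HIST1H3D was over the limit in 1 of them. HIST1H3C had 5 and 8 counts in control, 26 and 23 in SS, and 1 and 1.84 in SS+NAC. Its log2 fold change for SS against control was 1.74 ± 0.4 (adjusted p = 0.0065), which was not called with the length offset (1.14) or without control replicate 1 (adjusted p = 0.0653).

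H4 genes gave 5 calls among 7 tested, and 0 by edgeR with the length offset, where 2 had an unadjusted p under 0.05. The DESeq2 Wald test called 0. The share of short genes called higher was 74.5%, and of the 5 genes HIST1H4D and HIST1H4E passed the filter only through SS, while HIST2H4A and HIST2H4B had identical counts. HIST1H4C, the most abundant, had 3.56 and 3.66 CPM in control, 5.1 and 5.34 CPM in SS, and 1.82 and 1.5 CPM in SS+NAC. The SS libraries were the highest and the SS+NAC libraries the lowest, with no overlap. For SS against control the log2 fold change was 0.53 ± 0.17 (adjusted p = 0.0309). The length offset turned it to -0.11, and leaving out control replicate 1, control replicate 2, SS replicate 1 or SS replicate 2 gave adjusted p = 0.144, 0.106, 0.0765 and 0.134. HIST1H4B and HIST1H4D were singled out after their values were seen. HIST1H4B had 0 and 0 counts in control, 10 and 12.6 in SS, and 0 and 1 in SS+NAC. It was not tested, and it was at least 3.37-fold higher in SS than in control when control was set at 3 counts per library. HIST1H4D had 0 and 3 counts in control, 14 and 11 in SS, and 0 and 0 in SS+NAC, a ratio of 7.45 for SS against control (interval 2.27 to 38.6).

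**Figure D3:**
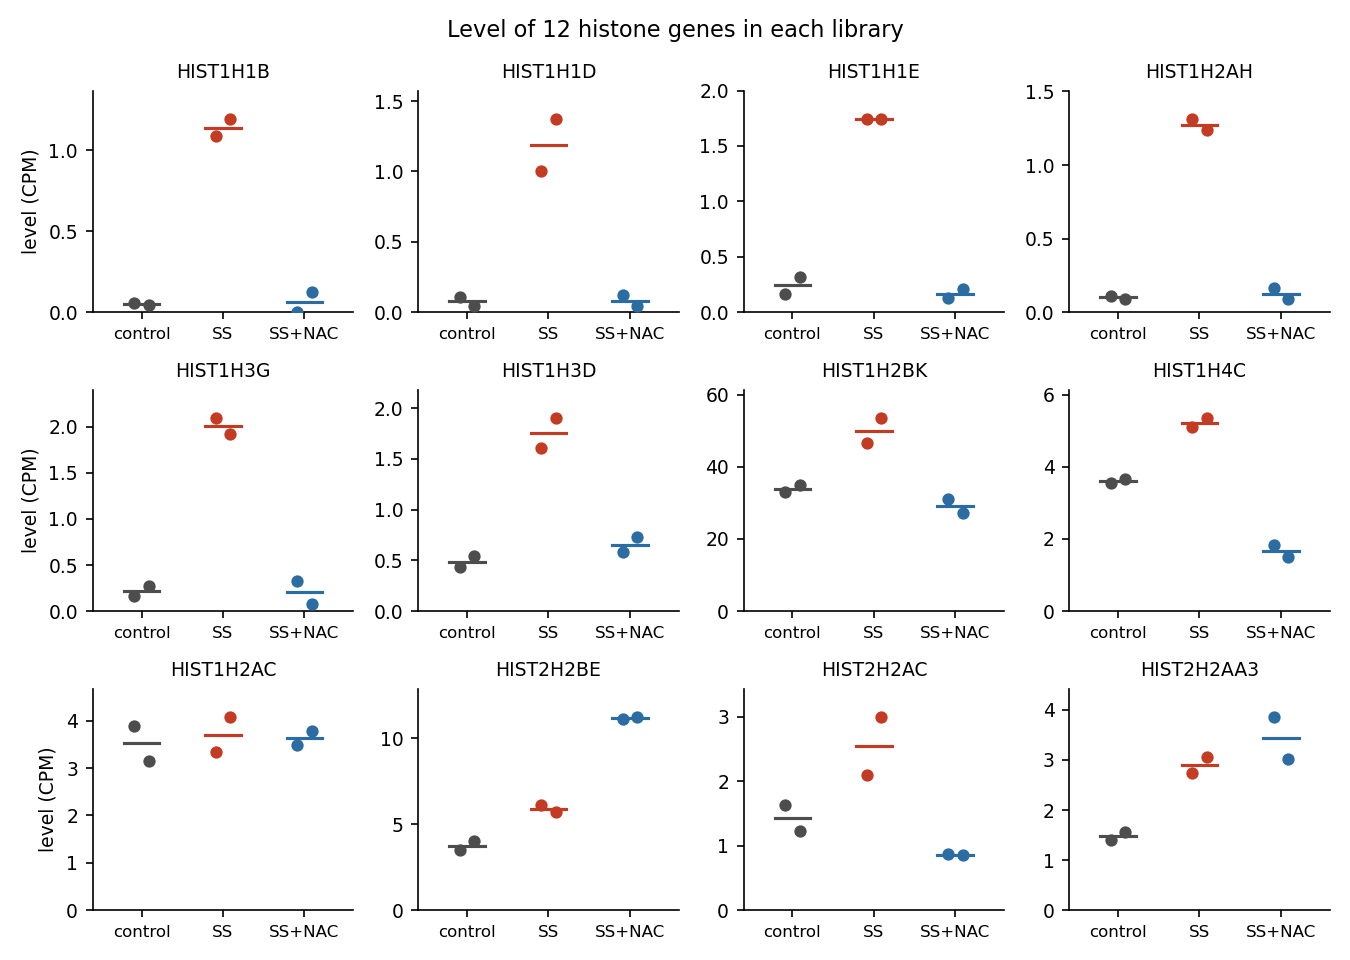
Level of 12 histone genes in CPM (linear axis from 0, own scale for each gene) in control, SS and SS+NAC. Points are the 2 libraries of a group and the bar is their mean. In HIST1H1B, HIST1H1D, HIST1H1E, HIST1H2AH and HIST1H3G only the SS libraries are high, whereas in HIST2H2BE the SS+NAC libraries are the highest, at 11.1 and 11.2 CPM.

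SS+NAC against control asks what remained different when NAC was given with SS. HIST2H2BE, an H2B gene of the chromosome 1 cluster with a known polyadenylated form, and the H2A copies HIST2H2AA3 and HIST2H2AA4 of the same cluster were higher, and HIST1H4C was lower. Of the 36 tested members, 3 rose and 1 fell, against 1.36% of all tested genes higher and 0.657% lower. At an unadjusted p under 0.05 the counts were 4 and 2, and the share of all genes at that limit is not given. Among the 34 tested members of at most 1000 bases 2 rose and 1 fell, against 0.971% and 0.243% of tested genes in that range. Those 2 are HIST2H2AA3 and HIST2H2AA4, whose counts were identical. With copies summed, a choice made after seeing the data, 2 members in all were higher. The median log2 fold change of the 36 tested members was 0.11, also with HIST1H4K, which was at 0 in SS+NAC, set at its bound. It was -0.05 for members with at least 10 counts in every library and -0.11 for those with whole counts. Leaving out a library gave -0.14 to 0.21, so that its sign depended on the setting. With the length offset 3 of the tested members rose and 1 fell, against 1.35% and 0.664% of all genes. Among the short members the counts were again 2 and 1, against 0.728% and 0.243% of short genes. In 15 of 66 members each SS+NAC library was higher than each control library (CPM) and in 14 each was lower, near the 22.5% and 20.8% of all listed genes.

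HIST2H2BE (gene ID 8349, chr1:149884459-149886652) had 62.8 and 88.6 counts in control, 140 and 125 in SS, and 267 and 269 in SS+NAC. In CPM these were 3.49 and 4.01, 6.09 and 5.69, and 11.1 and 11.2. The 3 groups did not overlap, with SS+NAC highest and SS between. The log2 fold change of SS+NAC against control was 1.55 ± 0.14 (adjusted p = 0.000225), a 2.94-fold difference, and it was called in each of 16 alternative settings, with an adjusted p other than Bonferroni from 3.45e-08 to 0.00258. For SS against control it was 0.64 ± 0.15 (adjusted p = 0.00679). That smaller difference was not called with the length offset (0.52) or without control replicate 1 (0.55, adjusted p = 0.0653). With an effective length of 2230 bases this gene was longer than most members.

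HIST2H2AA3 (gene ID 8337) and HIST2H2AA4 (gene ID 723790) are copies whose counts were identical, and how reads that match both were assigned was not tested. Their summed counts were 50.7 and 68.8 in control, 126 and 134 in SS, and 186 and 146 in SS+NAC. In CPM these were 2.82 and 3.11, 5.48 and 6.1, and 7.7 and 6.05, so that both treated groups were above control and, by CPM, overlapped with each other. By TPM they did not, as HIST2H2AA3 had 9.2 and 9.31 TPM in SS and 15 and 12.6 TPM in SS+NAC. For SS against SS+NAC the sum gave -0.25 (adjusted p = 0.247), and -0.88 with the length offset (adjusted p = 0.00427). As a sum, which was chosen after seeing the data, they gave a log2 fold change of 1.2 ± 0.18 for SS+NAC against control (adjusted p = 0.00728). Each copy alone gave 1.23 ± 0.23 (adjusted p = 0.0231). The call of each copy was lost without control replicate 1 (adjusted p = 0.152) or control replicate 2 (adjusted p = 0.119) and with the DESeq2 Wald test.

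HIST1H4C was the member that fell. Its log2 fold change for SS+NAC against control was -1.12 ± 0.2 (adjusted p = 0.0176), and -1.04 with the length offset. The call was lost without control replicate 1, control replicate 2 or SS+NAC replicate 2, with adjusted p = 0.0853, 0.124 and 0.0561. The counts were 64 and 81 in control and 44 and 36 in SS+NAC. Without control replicate 1 or control replicate 2, the number of members called higher was 1, HIST2H2BE, and the number called lower was 0. Leaving out SS+NAC replicate 1 gave 2 lower and leaving out SS+NAC replicate 2 gave 0.

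SS against SS+NAC asks how the cells with and without NAC differed under SS. It shares its SS libraries with the first comparison, so that its values are given beside those and are no separate support for them. Several genes with few counts outside SS, of the H1, H2A, H3 and H4 families, were higher in SS, and HIST2H2BE was lower. The families were not tested against each other. Of the 36 tested members, 17 were higher in SS and 1 was lower, against 19.6% and 23.1% of all tested genes. The median log2 fold change was 1.09 for the members, also with HIST1H4D and HIST1H4K set at their bounds, and -0.03 for all genes. Among tested genes of at most 1000 bases 71.7% were higher in SS, and 17 of the 34 members in that range were. The medians in that range were 0.54 for all genes and 1.13 for the members, of which 12 passed the filter only through SS, and members with at least 10 counts in every library had a median of 0.7. With the length offset 9 members were higher and 3 lower, against 7.04% and 7.38% of all tested genes and 2.31% and 3.76% of the short ones. Those 9 were HIST1H1B, HIST1H1D, HIST1H1E, HIST1H2AH, HIST1H2BK, HIST1H3C, HIST1H3G, HIST1H4C and HIST1H4D, and the 3 were HIST2H2BE, HIST2H2AA3 and HIST2H2AA4. Of the 9, 7 passed the filter only through the SS libraries, so that their number is partly set by the filter, and HIST1H2BK and HIST1H4C passed in every group. HIST1H2BK lost the call in 1 of the settings with an offset, and over the alternatives other than Bonferroni its adjusted p ran from 1.53e-08 to 0.0778. In 51 of 66 members each SS library was higher than each SS+NAC library and in 2 each was lower, against 28.7% and 32.8% of all listed genes and, above, 59.2% of the short ones.

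The log2 fold changes of SS against SS+NAC were 4.07 ± 0.64 (adjusted p = 0.000885) for HIST1H1B, 3.75 ± 0.55 (adjusted p = 0.000652) for HIST1H1D and 3.35 ± 0.42 (adjusted p = 0.000373) for HIST1H1E. The corresponding values with the length offset were 3.58, 3.24 and 2.84. These genes, like HIST1H3C and HIST1H4D, passed the filter only through the SS libraries. HIST1H3C, the gene with 1 and 1.84 counts in SS+NAC, gave a ratio of summed counts of 18.6 (interval 5.67 to 88.1) and a log2 fold change of 4.02 ± 0.53 (adjusted p = 0.000462). HIST1H4D, at 0 in both SS+NAC libraries, was at least 4.48-fold higher in SS when SS+NAC was set at 3 counts per library. Abundant genes also differed. HIST1H4C gave 1.65 ± 0.19 (adjusted p = 0.00026) and HIST1H2BK 0.78 ± 0.1 (adjusted p = 0.000361), and these were 0.93 and 0.28 with the length offset. HIST2H2BE gave -0.91 ± 0.13 (adjusted p = 0.000566), and -1.02 with the length offset.

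**Figure D4:**
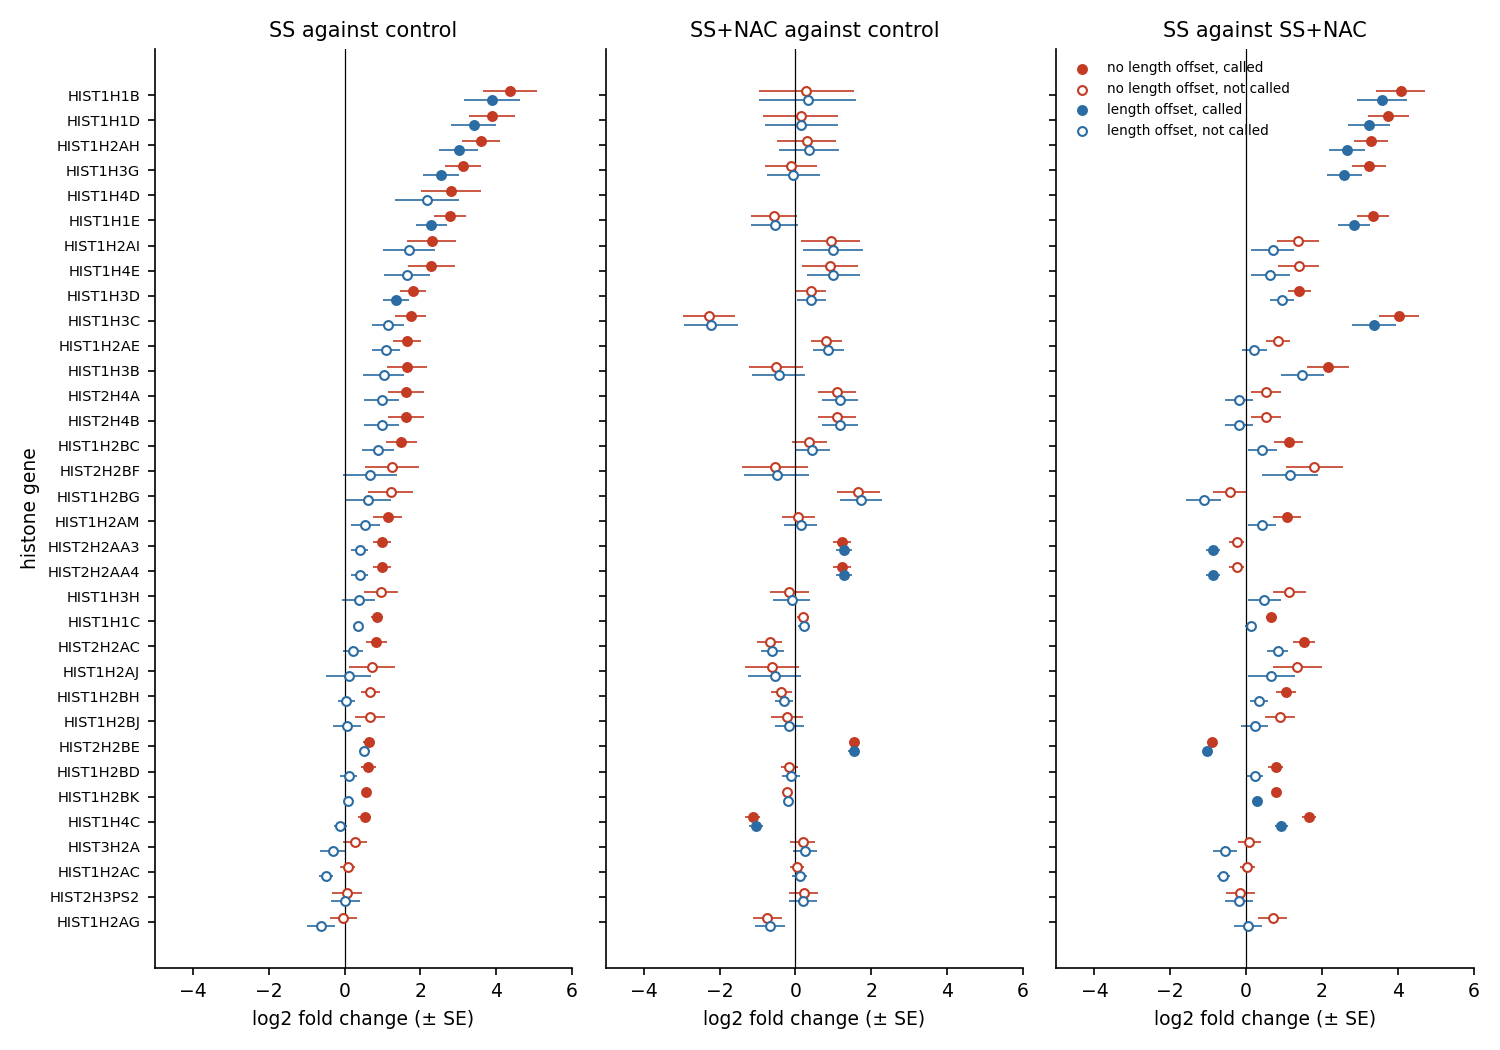
Log2 fold change with SE of 34 tested histone genes in the 3 comparisons, without the length offset (red) and with it (blue), filled where called. HIST1H4J and HIST1H4K, whose counts were exchanged between libraries, are left out, as are values of HIST1H4D where a group was at 0. In the first panel 24 genes are filled in red and 6 in blue.

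The clusters differed between treatments in their summed level. The HIST1 genes summed to 62 and 65.6 CPM in control, 103 and 119 CPM in SS, and 59.4 and 54.6 CPM in SS+NAC. The HIST2 genes summed to 10.5 and 10.9 CPM in control, 18.1 and 20.5 CPM in SS, and 22.1 and 21.5 CPM in SS+NAC. For HIST1 the SS+NAC libraries were below control, and for HIST2 they were above control and, by CPM but not by TPM, above both SS libraries. The mean of SS+NAC was 0.894 times control for HIST1 and 2.04 times control for HIST2 by CPM, and 0.914 and 1.78 times by TPM. HIST2H2BE and the HIST2H2AA3 and HIST2H2AA4 copies held most of the HIST2 sum. Whether the clusters differed in their response was not tested.

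Some copies are not read as single genes here, and those described were chosen after their values were seen. HIST1H4J had 0 and 47 counts in control, 0 and 93 in SS, and 41 and 31 in SS+NAC. HIST1H4K had 34 and 0, 76 and 0, and 0 and 0. Whichever gene had counts in a control or SS library, the other had 0. How reads that match both genes were assigned was not tested. Summed, a choice made after seeing the data, they had 34 and 47 counts in control, 76 and 93 in SS, and 41 and 31 in SS+NAC. For the sum the log2 fold change was 0.9 ± 0.23 (adjusted p = 0.0106) for SS against control, and 0.23 with the length offset. HIST2H4A and HIST2H4B also had identical counts, which summed to 10 and 10 in control, 29 and 42 in SS, and 23 and 29 in SS+NAC.

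Many H2A and H2B genes stand head to head, with a shared stretch of promoter between their starts. The members held 11 such pairs, 10 of them of H2A with H2B, and in 5 both genes were tested. HIST1H2BK and HIST1H2AH start 331 bases apart, and their log2 fold changes for SS against control were 0.56 and 3.6. HIST2H2BE and HIST2H2AC start 323 bases apart, and their promoter windows share 265 bases. HIST2H2AC had 1.63 and 1.23 CPM in control, 2.09 and 2.99 CPM in SS, and 0.869 and 0.855 CPM in SS+NAC, so that it was lowest in SS+NAC, where HIST2H2BE was highest. For SS+NAC against control the log2 values were 1.55 for HIST2H2BE and -0.68 ± 0.32 (adjusted p = 0.328) for HIST2H2AC. For SS against SS+NAC HIST2H2AC gave 1.53 ± 0.29 (adjusted p = 0.00222), which was 0.83 and not called with the length offset. HIST1H2BC and HIST1H2AC gave 1.49 and 0.08 for SS against control, HIST1H2BG and HIST1H2AE gave 1.22 and 1.64, and HIST1H2BJ and HIST1H2AG gave 0.67 and -0.03. Of these, HIST1H2BC (adjusted p = 0.0153) and HIST1H2AE (adjusted p = 0.00594) were called. HIST1H2BC lost the call without control replicate 1 (adjusted p = 0.124) or SS replicate 2 (adjusted p = 0.0956), HIST1H2AE without control replicate 2 (adjusted p = 0.0508), and both with the length offset.

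Genes that make and process histone messengers were examined as lists for SS against control, where 18.6% of all tested genes were higher and 21.4% lower, and 4.19% and 5.03% with the length offset. Of 21 genes for transcription and 3' processing 8 rose and 5 fell, and with the length offset 4 were higher and 1 lower. SLBP, which binds the stem-loop, was at 98.2 and 98.6 CPM in control, 130 and 128 CPM in SS, and 98.4 and 97.8 CPM in SS+NAC. By CPM only the SS libraries were raised, but by TPM an SS+NAC library, at 90.4, lay above an SS library, at 86.4. The log2 fold change was 0.39 ± 0.07 (adjusted p = 0.0016), and 0.28 with the length offset. Over the alternatives other than Bonferroni the adjusted p ran from 6.76e-05 to 0.0788, so that the call did not hold in each of them. NPAT, the coactivator of histone gene transcription, was at 23.6 and 22.2 CPM in control and 13.3 and 14.9 CPM in SS, and fell by 0.7 on the log2 scale (adjusted p = 0.000565), although with the length offset the difference was -0.3 and not called. CASP8AP2, a partner of NPAT at histone genes, fell by 1.04 (adjusted p = 0.000461), and with the length offset, where it was also called, by 0.62. The Sm proteins SNRPB, SNRPF and SNRPG rose by 0.57, 0.51 and 0.57, none of them called with the offset, and SNRPF not without SS replicate 2 (adjusted p = 0.0585). LSM10, of the U7 particle, was called higher at 0.4 and turned to -0.06 with the offset, and it lost the call without control replicate 1 (adjusted p = 0.131) or SS replicate 2 (adjusted p = 0.115).

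Of 10 genes for the decay of histone messengers 1 rose and 6 fell, and with the length offset 0 were higher and 2 lower, as 0 and 3 at an unadjusted p under 0.05. The Wald test without it called 1 and 5. The list's median effective length was 6256 bases, and its median log2 fold change of -0.4 was that of other genes of 5600 to 8000 bases, of which 60.2% were lower. ATR, SMG1 and XRN1 fell by 0.83, 0.96 and 0.84, and the offset left -0.35, -0.31 and -0.31, of which those of ATR and SMG1 were called. Over the alternatives the adjusted p of ATR ran up to 0.0535 and that of SMG1 up to 0.057. Of 13 genes of the general cleavage and polyadenylation machinery 4 rose and 3 fell, and with the offset 3 were higher and 0 lower. PABPN1, the nuclear poly(A) binding protein, was at 146 and 141 CPM in control and 191 and 200 CPM in SS, and rose by 0.45 ± 0.08 (adjusted p = 0.00181), and 0.26 with the offset. It was called with the offset alone but not in the other settings that include it, and its adjusted p other than Bonferroni ran from 1.25e-05 to 0.105. PAPOLA, the poly(A) polymerase, fell by 0.41 and was not called with the offset.

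Of 12 replication-independent histone genes, whose messengers carry ordinary poly(A) tails, 6 rose and 0 fell by the edgeR test, as by the DESeq2 Wald test, and at an unadjusted p under 0.05 the counts were 9 and 0. With the offset 3 were higher. Those 3 were H2AFJ, H1FX and H3F3B, at log2 fold changes of 0.74, 0.6 and 0.32 without the offset and 0.87, 0.29 and 0.32 with it. H1FX lost the call in 1 of the settings with an offset, where its adjusted p ran up to 0.0713. H3F3B lost the call without control replicate 1 (adjusted p = 0.0725) or control replicate 2 (adjusted p = 0.0543). H2AFJ, an H2A variant, was at 20.9 and 19.3 CPM in control, 34.4 and 32.6 CPM in SS, and 23 and 24.3 CPM in SS+NAC. Of 27 histone chaperone genes 2 rose and 7 fell, and with the offset 1 was higher and 1 lower. CHAF1A, a subunit of the chromatin assembly factor that deposits new H3 and H4, gave a log2 difference of 0.0 (adjusted p = 0.999).

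Of 19 S-phase genes 5 rose and 1 fell, and with the offset 0 were higher and 1 lower. PCNA, the sliding clamp of DNA replication, was at 308 and 316 CPM in control, 439 and 454 CPM in SS, and 312 and 308 CPM in SS+NAC, a rise of 0.52 ± 0.07 (adjusted p = 0.000537) that was 0.17 and not called with the offset. At an unadjusted p under 0.05 the offset gave 2 higher, and the DESeq2 Wald test without it called 5. The proliferation markers MKI67 and TOP2A were lower in SS, with log2 fold changes of -0.82 and -0.3, and with the offset of -0.25 and 0.06, neither of them called. Their transcripts are long. The part of the cell cycle in the histone values was not tested.

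For SS+NAC against control, 0 genes rose and 0 fell in the lists for replication-independent histones, transcription and processing, decay, chaperones, S phase, and cleavage and polyadenylation by the edgeR test. The shares of all tested genes were also low, at 1.36% higher and 0.657% lower. Over the 102 tested genes of these 6 lists an unadjusted p under 0.05 gave 3 higher and 12 lower, and the DESeq2 Wald test called 0. The share of all genes at that unadjusted limit is not given, so these counts are not compared with it. For SS against control 18.6% of all tested genes and 74.5% of the short ones were higher, and 4.19% and 1.09% with the offset. Among the 6 tested genes with known polyadenylated forms, 4 rose for SS against control, 0 with the offset, and 1, HIST2H2BE, for SS+NAC against control. For SS against SS+NAC 3 of these 6 were higher in SS and 1 lower, and with the offset 1 and 1. For SS against SS+NAC the counts of genes higher and lower in SS were 11 and 0 of 12 replication-independent histone genes, 8 and 5 of 21 for transcription and processing, 2 and 6 of 10 for decay, 4 and 6 of 27 chaperones, 9 and 0 of 19 S-phase genes, and 5 and 0 of 13 for cleavage and polyadenylation. With the offset these were 2 and 0, 5 and 2, 0 and 1, 2 and 1, 2 and 0, and 5 and 0. Over all tested genes the shares were 19.6% and 23.1%, and 7.04% and 7.38% with the offset. SLBP was called higher in SS in that comparison too, at 0.39 ± 0.07 (adjusted p = 0.00135) and 0.3 with the offset.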

How the data were processed

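KHM-5M cells were grouped by treatment as control, SS and SS+NAC, with 2 libraries each. Per the labels, RNA was captured with oligo(dT) and sequenced in single-end reads that were filtered with SOAPnuke, mapped with HISAT2 2.0.4 and Bowtie2 2.2.5 and quantified with RSEM 1.2.12. The expected counts in the deposited table are the authors' RSEM estimates, with reads that match several genes divided among them. The FPKM values were computed by the authors from these counts, effective length and depth. Here they served, with the counts and library totals, to derive the effective length of each gene. RSEM also gave the authors the TPM values, which scale counts by length and depth. The authors' comparison columns hold log2 fold changes, p-values and q-values between groups and were not used.

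Expected counts were rounded, filtered with filterByExpr, scaled with TMM and fitted over all 6 libraries with the quasi-likelihood test of edgeR 4.0.16 (R 4.3.3). P-values were adjusted over 14005 genes by the Benjamini-Hochberg method. The length offset was a lowess fit (span 0.3) for each library on the log of effective length. The fit was checked on simulated counts of 14005 genes, of which 200 were changed. It called 209 genes without a simulated length trend. With such a trend it called 3809 without the offset and 206 with it. Coordinates came from GENCODE 29 and promoters from RefSeq on GRCh38.p14. At 100 counts the counting error is about 0.1 of the value, and most members had fewer.

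Members named were the 10 highest in TPM, up to 10 called members in each direction of each comparison with the largest fold changes (average in either group 1 CPM or more), the most abundant of each family and cluster, the listed polyadenylated forms, tested head-to-head pairs, a fixed list of histone factors, and up to 3 called genes in each direction of each other list. The lists were polyadenylated forms, replication-independent histones, transcription and processing, decay, chaperones, S phase, cleavage and polyadenylation, and markers of cell type and proliferation, of which some are not reported here. The members and lists were chosen with earlier results of these data known.

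Alternatives were DESeq2 1.42.0 size factors, the DESeq2 Wald test, other filters, a fit of only the 4 libraries compared, the length offset, the replicate number as a block, both together, Bonferroni adjustment, whole-count or abundant members only, other detection limits, TPM sums, and leaving out each library. The offset without a filter, summed copies and medians with lower bounds were chosen after seeing the data. Python 3.11.15 with pandas 2.3.3, numpy 2.4.6, scipy 1.17.1 and matplotlib 3.10.9 made the tables and figures.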

Additional observations from a re-analysis of the deposited data

How the results depend on the processing

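With the length offset, 6 members were called higher for SS against control, 9 higher and 3 lower for SS against SS+NAC, and the median log2 fold changes were 0.53 and 0.42. The offset removes the part of a difference that follows transcript length by construction. With no filter and the length offset, chosen after seeing the data, 7 members were higher for SS against control, 11 higher and 3 lower for SS against SS+NAC, and the medians were 0.73 and 0.79. These 2 settings reversed the log2 fold change for SS against control in several genes. Examples are CSTF3 (-0.02 and -0.0), H2AFZ (-0.07 and -0.02), HIST1H4C (-0.11 and -0.01), LSM1 (-0.03 and -0.0) and LSM10 (-0.06 and -0.01), and, among members that were not called, HIST1H2AC (-0.49 and -0.41) and HIST3H2A (-0.31 and -0.23). With the length offset DCP2, EP400 and TOP2A, called lower without it, were at 0.18, 0.08 and 0.06.

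A limit of at least 10 counts in every library gave 9 members higher for SS against control, which are 8 of the 24 and HIST1H2BH, and 6 for SS against SS+NAC, with medians of 0.66 and 0.7. No filter gave a median of 1.33 for SS against SS+NAC. Members with whole counts had medians of 1.64 for SS against control and 2.15 for SS against SS+NAC, and the 3 with at least 100 counts on average 0.64 and 0.66, where 0.64 is the value of HIST2H2BE, a longer gene. The cause was not tested.

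The DESeq2 Wald test called 5 members higher for SS against control, 1 for SS+NAC against control and 6 for SS against SS+NAC. Of all 17644 genes in that test it called 2110, 178 and 2504 higher in that order. It gave no adjusted p for many members with few counts, HIST1H1B among them. Bonferroni adjustment, which the study's methods name, left 0 members higher for SS against control. It left 1 higher and 0 lower for SS+NAC against control, and 0 higher and 0 lower for SS against SS+NAC. Of all 14005 tested genes it left 13 higher, 32 higher and 8 lower, and 24 higher and 167 lower in that order.

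The labels do not say that equal replicate numbers belong together. The log2 difference between the replicates of a group was taken for each tested gene and compared between groups. Its correlation across genes was 0.113 for control and SS, -0.105 for control and SS+NAC, and -0.175 for SS and SS+NAC. The replicate block gave 23 higher for SS against control, where HIST1H4C was not called, 2 lower for SS+NAC against control, and 18 higher for SS against SS+NAC, where HIST1H2AM was not called and HIST1H4E and HIST1H4K were. The added lower call was HIST1H4K, whose counts are exchanged with those of a copy. Among members it changed no other call. With the replicate block and length offset, 5 members were higher for SS against control, 2 lower for SS+NAC against control, and 9 higher and 3 lower for SS against SS+NAC. Those 9 are not the 9 of the length offset alone, since HIST1H2BK was not called (adjusted p = 0.0778) and HIST1H4K was. The replicate block with the offset also ended the calls for SS against control of HIST1H3D (adjusted p = 0.0505), SLBP (0.0788), PABPN1 (0.105), H1FX (0.0713), ATR (0.0535) and SMG1 (0.057).

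Leaving out a library gave 12 to 31 members higher for SS against control, 1 to 3 higher and 0 to 2 lower for SS+NAC against control, and 13 to 23 higher for SS against SS+NAC. The medians ran from 1.06 to 1.49, from -0.14 to 0.21 and from 0.98 to 1.36. With a lone library in a group the filter let more members through.

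Detection was 14 members at 10 counts in every library, 66 at 1 count in any library, 49 at 10 counts in any library, 42 at a mean TPM of at least 1 and 36 past the filter. The log2 ratio of summed levels was 0.59 by TPM and 0.97 without the most abundant member for SS against control, 0.29 without it for SS+NAC against control, and 0.55 by TPM for SS against SS+NAC.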

Other observations

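Each group had 2 libraries, and most members had few counts. Poly(A) selection is known to leave out histone messengers without a tail, and whether the counts came from tailed transcripts or from carried-over untailed ones was not tested. Whether SS changed transcription, the ends or the decay of histone transcripts was not tested, nor was the cause of the relation between fold change and transcript length. Reads of 50 bases cannot be told apart between near-identical copies.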
